A study of Saccharomyces cerevisiae with 6 samples.

Results

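Transcript levels of budding yeast lacking EOS1 were compared with those of budding yeast lacking IZH2, with 2 arrays of each strain, 4 of the 6 arrays of a study on the part of Eos1 in zinc homeostasis. Arrays were assigned by their titles, which name the deletion and a replicate number. The groups are the eos1 deletion (delta eos1) and the izh2 deletion (delta izh2), both made in BY4741, and the wild type BY4741 itself (2 arrays), which serves here to place the levels of the deletion strains. BY4741 is a haploid laboratory strain of mating type a, and all 3 groups share its lack of HIS3, LEU2, MET17 and URA3 function. YPD, a rich medium, was used throughout, and log-phase cultures shaken at 150 rpm and 30 °C were collected once the optical density reached 1.0. The labels report independent experiments but do not say whether a strain was represented by 1 clone, nor which arrays share a day.

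Eos1 and Izh2 are both membrane proteins. Eos1 sits in the endoplasmic reticulum, the compartment in which proteins entering the secretory pathway are folded and receive N-linked sugars, and its loss makes cells sensitive to oxidants. Izh2 belongs to a family related to animal adiponectin receptors, and IZH2 is a target of Zap1, the activator that turns on zinc uptake when zinc is scarce. Since zinc metabolism is touched by both genes, comparing the deletions directly shows which transcripts set loss of one apart from loss of the other.

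Signals below are probe set signals scaled so that the median gene has the same level on every array, and a log2 difference is the eos1 deletion minus the izh2 deletion. Before scaling, the median signal of the 5449 genes was 684 and 571 on the eos1 deletion arrays, 497 and 472 on the izh2 deletion arrays and 549 and 499.7 on the wild-type arrays. Arrays of one strain had log2 signals that correlated over genes (not independent replicates) at 0.976 in the eos1 deletion, 0.981 in the izh2 deletion and 0.969 in the wild type. Of all genes 4915 (90.2%) lay above the background of probe sets for no S. cerevisiae gene and were tested with limma. A gene counts as called at an adjusted p under 0.05. The number of arrays limits the precision: the standard error of a log2 difference had a median of 0.21. P values measure only the spread between these arrays.

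The deleted genes bore out the titles. EOS1 (YNL080C, chromosome XIV) had scaled signals of 0.791 and 2.55 on the eos1 deletion arrays, against 910.0 and 689 on the izh2 deletion arrays and 685 and 750.0 in the wild type. Its deposited signals in its own deletion were 0.42 and 2.70. With the background of the filter, a scaled signal of 90.5, in place of dimmer signals, EOS1 was at least 8.75-fold lower in the eos1 deletion than in the izh2 deletion (limma, adjusted p = 2.8e-05). Here and below, a p value beside a bound is that of the fitted difference and does not test the bound. IZH2 (YOL002C, chromosome XV) had scaled signals of 1841 and 1217 in the eos1 deletion, against 3.77 and 1.29 in the izh2 deletion and 3494 and 2589 in the wild type, and was at least 16.5-fold higher in the eos1 deletion (limma, adjusted p = 1.8e-05). The dim IZH2 signals had been deposited as 3.46 and 1.12. The neighbours of both genes gave no call: SWS2 and TPM1, next to EOS1, differed by -0.18 and -0.12 on the log2 scale, and PHO80 and PFA4, next to IZH2, by -0.15 and 0.17.

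Of the 4915 genes tested 530 (10.8%) differed between the deletions. In the eos1 deletion 315 (6.41%) were higher and 215 (4.37%) lower, EOS1 and IZH2 included, and in each of the 530 both eos1 deletion arrays lay beyond both izh2 deletion arrays. Of the called genes 4 lay below background on both eos1 deletion arrays (ASG7, EOS1, FUS1 and PHM6) and 16 on both izh2 deletion arrays. Each of these 20 passed the filter through the strains in which it is brighter, and its fold is given as a bound against a scaled signal of 90.5. A further 15 lay below background on 1 of the izh2 deletion arrays, among them NQM1, NCA3, DCS2, CTT1, TSA2 and PCK1. Separation of the arrays is common by itself, found in 56.9% of all genes tested. A difference above 2-fold was reached by 192 higher and 57 lower genes, and one above 4-fold by 18 and 8. The split into higher and lower genes depends on the scaling: on signals as deposited, where the median of all genes tested lay 0.31 above 0 against -0.05 after scaling, 588 genes were higher and 35 lower. Without one array a strain rests on 1 array that is assumed to vary like the others, and fewer genes pass: 105 without eos1 deletion array 1 (103 of them among the 530), 214 without eos1 deletion array 2 (192 among them), 144 without izh2 deletion array 1 (138) and 86 without izh2 deletion array 2 (83).

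The wild type entered the comparison through the shared estimate of spread, the filter on dim genes and the choice of probe set. It mostly lay near the izh2 deletion. Its mean was nearer to the izh2 deletion in 494 of the 530 called genes (93.2%), against 67.5% of all genes tested. The share was 98.4% for higher genes of chromosome II, 80.3% for higher genes elsewhere and 96.7% for lower genes. In the higher genes elsewhere the izh2 deletion minus the wild type had a median of -0.37. Against the wild type, 314 genes (6.39%) were called for the eos1 deletion and 1 gene (0.0203%), IZH2, for the izh2 deletion. Both wild-type arrays lay strictly between the deletion strains in 180 of the 530 called genes, against 7.49% of all genes tested. Among the higher genes outside chromosome II this was so for 83 of 132.

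HSP26 and DDR2 headed the higher genes after IZH2. HSP26, a small heat shock protein that holds unfolded proteins, had scaled signals of 4276 and 2789 in the eos1 deletion, against 280.2 and 201 in the izh2 deletion and 298 and 409.6 in the wild type, a 14.5-fold difference between the deletions (limma, adjusted p = 0.00025). DDR2, a gene induced by many stresses, had 2547 and 1330.0 in the eos1 deletion, against 166 and 101 in the izh2 deletion and 317 and 268 in the wild type, and was 14.2-fold higher (adjusted p = 0.00062). For both genes the eos1 deletion stood far above the other strains, and the izh2 deletion lay below the wild type. RTC3 followed at 10.1-fold, HSP12, a membrane-stabilising stress protein, at 9.07-fold, COS111 at no less than 4.31-fold (both izh2 deletion arrays below background), the transaldolase paralogue NQM1 at 7.85-fold, TMA10 at 7.25-fold and NCA3, of the SUN family of cell wall proteins, at 6.17-fold. HXK1, a hexokinase repressed by glucose, had 3879 and 3367 in the eos1 deletion, against 833 and 329.9 in the izh2 deletion and 1219 and 1686 in the wild type. Its 6.89-fold difference (adjusted p = 0.0041), 2.79 on the log2 scale, was 3.45 without the first and 2.12 without the second izh2 deletion array. COS111 is placed by its fitted log2 difference, which was 2.29 without the first izh2 deletion array and over 1.5 times larger in fold with it. Without either eos1 deletion array or the second izh2 deletion array its mean fell under the filter and it was not tested. SDS24 (5.6-fold) and PRX1, the peroxiredoxin of mitochondria (5.04-fold), both on chromosome II, completed the 12 highest.

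Among the 12 lowest genes, EOS1 included, was PHO11. This gene for a secreted acid phosphatase had scaled signals of 344 and 343 in the eos1 deletion, against 5871 and 6674 in the izh2 deletion and 5577 and 6057 in the wild type, an 18.2-fold fall (limma, adjusted p = 4.7e-06). Its probe set carries the maker's mark for shared sequence, so that its near-identical copy PHO12 cannot be told apart. RPS9A, one of 2 genes for a protein of the small ribosomal subunit, had 712 and 509.9 in the eos1 deletion, against 3257 and 3078 in the izh2 deletion, and fell 5.25-fold (adjusted p = 0.00047). SAM3, the permease for S-adenosylmethionine, fell 3.76-fold, YHB1, the flavohaemoglobin that detoxifies nitric oxide, 3.62-fold, and MAE1, the malic enzyme of mitochondria, 3.59-fold. In these the izh2 deletion and wild-type arrays overlapped or lay close together, while the eos1 deletion lay below both. YAR068W fell 5-fold (adjusted p = 0.0084), 3.25-fold without the first and 7.70-fold without the second eos1 deletion array, and its call was lost without the second izh2 deletion array. The plot of levels by array shows the 24 genes at both ends.

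**Figure D1:**
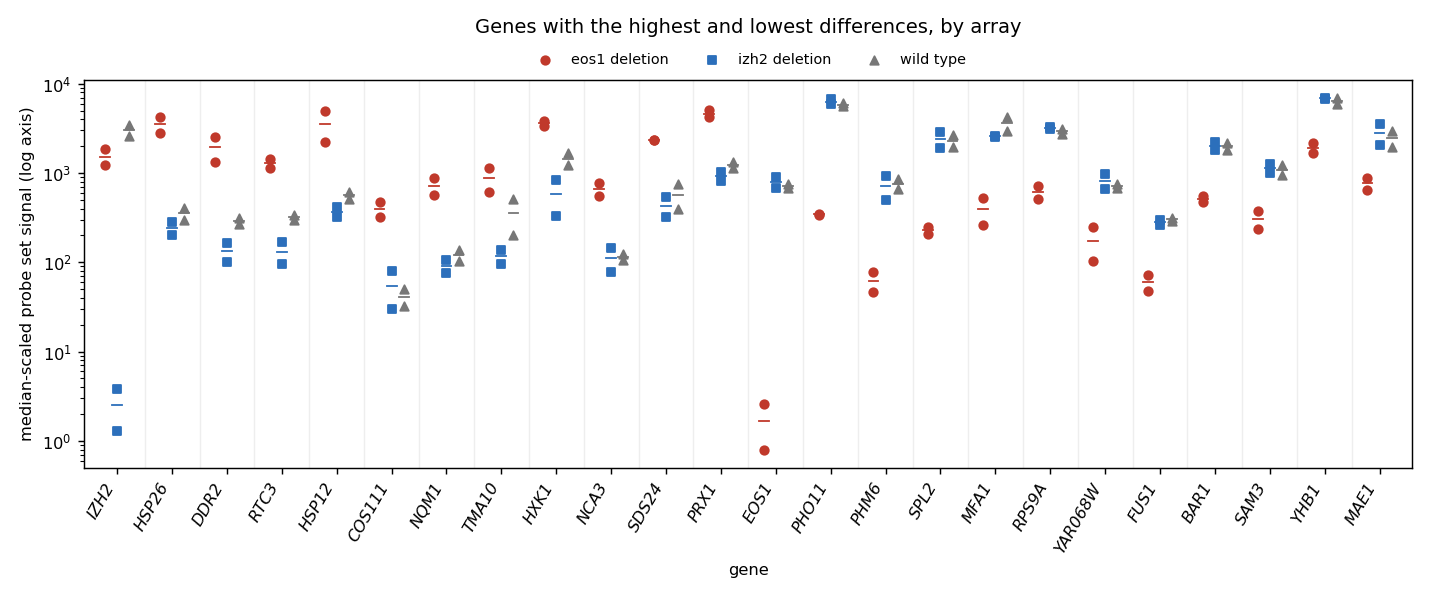
Median-scaled probe set signals (log axis) of the 12 highest and 12 lowest called genes in each array of the eos1 deletion (red circles), the izh2 deletion (blue squares) and the wild type (grey triangles), with bars at the mean of 2 arrays. EOS1 and IZH2 stand far below all other points, at 0.791 to 2.55 for EOS1 and 1.29 to 3.77 for IZH2, in their own deletion, and in the other 22 genes the red circles lie apart from the blue squares.

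Genes of chromosome II differed between the deletions as a block. Over 353 genes tested there, the log2 difference had a median of 0.80 (middle 50% from 0.49 to 1.07). Elsewhere, over 4562 genes, it had a median of -0.08 (middle 50% from -0.31 to 0.15), so that chromosome II exceeded the rest by 0.88 or 1.84-fold. The excess was 0.92 and 0.90 for the first eos1 deletion array set against the first and second izh2 deletion array, and 0.87 and 0.84 for the second. Set against the averaged wild type, each eos1 deletion array showed an excess (0.85 and 0.84), whereas the izh2 deletion arrays had -0.02 and -0.01. The other 15 chromosomes departed from the rest by -0.07 to 0.06. On chromosome II 52.7% of the genes were called, 183 higher (51.8%) and 3 lower (0.85%), against 7.54% elsewhere (2.89% higher and 4.65% lower). In the fit without this chromosome 259 genes of the others passed, 110 higher and 149 lower, where 132 and 212 had passed with it.

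**Figure D2:**
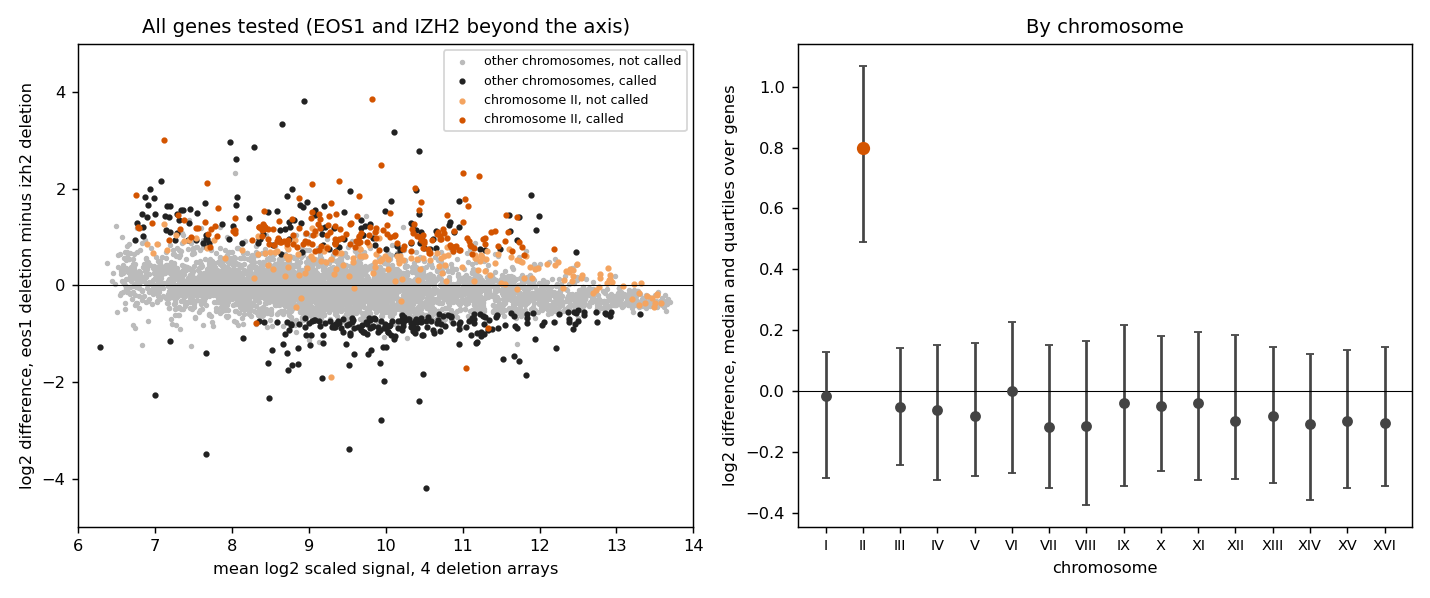
Left, log2 difference of the eos1 deletion minus the izh2 deletion for each gene tested against its mean level, with chromosome II genes in orange called genes in darker shades, and EOS1 and IZH2 beyond the axis. Right, the median and quartiles of the difference over the genes of each chromosome, where chromosome II lies at 0.80 and the others between -0.12 and 0.00.

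The excess ran along the whole chromosome. In 10 consecutive groups of 35 or 36 tested genes the median difference lay between 0.61 and 0.90, and from 12 to 20 genes of each group were higher. It varied with signal level: in the brightest sixth of all genes tested the 83 chromosome II genes exceeded the others by 1.51-fold, while in the 5 dimmer sixths the excess lay between 1.88-fold and 2.05-fold. The genes of other chromosomes also followed the level, with medians of 0.08 in the dimmest and -0.27 in the brightest sixth. After quantile normalization these medians lay between -0.10 and -0.05. The 5 highest genes of the chromosome were HSP26, COS111, SDS24, PRX1 and YRO2, a stress-induced membrane protein (4.8-fold, adjusted p = 0.0038).

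A few chromosome II genes went the other way. The 5 lowest were PHO89, PHO5, PHO3, AAC3 and TEF2. PHO5, the main secreted acid phosphatase, had scaled signals of 1249 and 1102 in the eos1 deletion, against 3524 and 4134 in the izh2 deletion, and fell 3.25-fold (limma, adjusted p = 0.0012). PHO3, an acid phosphatase regulated by thiamine, fell 1.85-fold (adjusted p = 0.012) and AAC3, an ADP/ATP carrier of mitochondria expressed at low oxygen, 1.72-fold (adjusted p = 0.029). Both calls were lost on signals as deposited and without single deletion arrays, 3 of them for PHO3 and each of the 4 for AAC3. PHO89, a sodium-coupled phosphate transporter, had 188 and 551 in the eos1 deletion, against 738 and 1955 in the izh2 deletion. The strains did not overlap but scattered widely, and the log2 difference of -1.90 (adjusted p = 0.051) was -2.67 without the second and -1.12 without the first eos1 deletion array. It passed on leaving out the second eos1 deletion array, the first izh2 deletion array or either wild-type array. TEF2, one of 2 genes for a translation elongation factor, differed by -0.45 (adjusted p = 0.16).

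**Figure D3:**
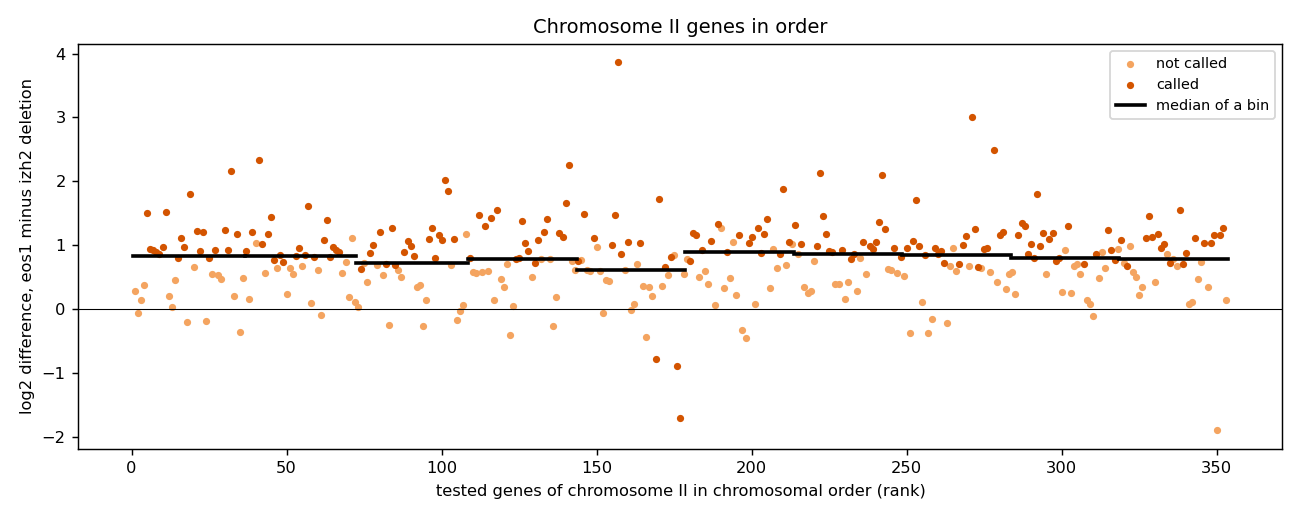
Log2 difference of the eos1 deletion minus the izh2 deletion for the 353 tested genes of chromosome II in chromosomal order, with called genes in dark orange and the medians of 10 consecutive groups as black lines. The lines stay between 0.61 and 0.90 from end to end.

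The phosphate regulon was lower in the eos1 deletion than in the izh2 deletion. When phosphate is scarce, the activator Pho4 induces phosphatases, transporters and the enzymes of polyphosphate storage. Of 18 tested genes 12 fell and 2 rose, with 4.37% lower and 6.41% higher among all genes, and the median log2 difference was -0.91, or -0.86 relative to all genes tested. PHM6 had scaled signals of 78.6 and 46.0 in the eos1 deletion, against 496 and 919 in the izh2 deletion. With both eos1 deletion arrays below background, it passed the filter through the strains in which it is brighter. It fell at least 7.46-fold (limma on the fitted difference, adjusted p = 0.0011). SPL2, an inhibitor of low-affinity phosphate uptake, had 249 and 207 in the eos1 deletion, against 1919 and 2922 in the izh2 deletion, and fell 10.4-fold (adjusted p = 0.00028). On every array of the eos1 deletion both lay below every array of the other strains. The subunits VTC1, VTC2, VTC3 and VTC4 of the vacuolar polyphosphate polymerase fell 1.62-, 2.00-, 2.15- and 2.07-fold, and PHO8, the vacuolar alkaline phosphatase, 1.91-fold. PHO84, the high-affinity phosphate transporter, which also carries zinc, fell 1.68-fold (adjusted p = 0.023). PHO81, the inhibitor of the Pho80-Pho85 kinase, fell 1.85-fold (adjusted p = 0.022), and PHO86 fell 1.49-fold. The 2 members that rose were PHM8, a phosphatase of nucleotides and lysophosphatidic acid (2.49-fold), and the glycerol phosphatase GPP2, whose gene is also induced by osmotic stress (2.17-fold). Without the first or second eos1 deletion array 5 and 8 members fell, without the first or second izh2 deletion array 7 and 5, and on signals as deposited 6. The calls of PHO84 and PHO81 were lost in each of those 5 fits. Of 9 tested genes of phosphate sensing and low-affinity transport 2 fell, PHO81 and the transporter PHO90 (1.67-fold), and 0 on signals as deposited or without any 1 of the deletion arrays.

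Genes that mark mating-type a cells were lower in the eos1 deletion without exception. These genes encode the a-factor pheromone, its exporter, the receptor for alpha-factor and the partner-binding agglutinin. All 7 fell, with 4.37% lower among all genes, and the median log2 difference was -1.57, also with ASG7 at its bound. MFA1, an a-factor gene, had scaled signals of 530.5 and 259 in the eos1 deletion, against 2621 and 2532 in the izh2 deletion and 4257 and 2977 in the wild type, a 6.95-fold fall (limma, adjusted p = 0.0022). BAR1, which encodes a secreted protease acting on alpha-factor, fell 3.93-fold (adjusted p = 0.0011), AGA2, the binding subunit of a-agglutinin, 3.15-fold, STE2, the alpha-factor receptor, 2.96-fold, MFA2, the other a-factor gene, 2.89-fold, and STE6, the a-factor exporter, 2.52-fold. ASG7, below background on both eos1 deletion arrays, passed the filter through the strains in which it is brighter. It fell at least 1.34-fold (limma on the fitted difference, adjusted p = 0.043). Its call was lost on signals as deposited, without the second array of the eos1 deletion and without either array of the izh2 deletion, and the other 6 kept theirs in each of these fits. The summed scaled signal of the 7 genes was 5762 and 5549 in the eos1 deletion, against 19160.2 and 17484 in the izh2 deletion and 19257 and 19712 in the wild type. In bulk RNA, fewer cells that express these genes and less RNA per cell cannot be told apart.

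Of 28 tested targets and components of the pheromone response 6 fell (21.4%, against 4.37% lower among all genes) and 0 rose. ASG7 of the a-cell genes is 1 of the 6. ASG7 and FUS1 lay below background on both eos1 deletion arrays and passed the filter through the strains in which they are brighter. The median of the list was -0.18, or -0.12 relative to all genes tested. FUS1, needed for cell fusion, had scaled signals of 47.4 and 71.9 in the eos1 deletion, against 265 and 296 in the izh2 deletion. It fell at least 3.09-fold (limma on the fitted difference, adjusted p = 0.0022). SST2, which ends G-protein signalling, fell 3.13-fold, FAR1, which arrests the cell cycle, 3.09-fold, AGA1, the anchor subunit of a-agglutinin, 2.46-fold, and GPA1, the G-protein alpha subunit, 1.97-fold. Of the kinase cascade, STE7, STE5, STE11 and FUS3 gave no call, with log2 differences of -0.01, 0.05, 0.25 and -0.25. FUS3 lies on chromosome II, where the median was 0.80. Without single arrays of the deletion strains 3 or 4 members fell, FUS1 and SST2 in each case. Markers of alpha cells had low signals in all strains. Of 4, SAG1, the alpha-agglutinin, was the 1 tested gene, with 356 and 366 in the eos1 deletion, against 275 and 235 in the izh2 deletion (adjusted p = 0.14, and called on signals as deposited). STE3, the a-factor receptor, had 114 and 114 in the eos1 deletion, against 41.7 and 88.5 in the izh2 deletion and 46.5 and 49.0 in the wild type, with its mean below the filter. The summed signal of the 4 alpha markers was 498 and 512 in the eos1 deletion, against 360 and 355 in the izh2 deletion and 351 and 345 in the wild type, with MF(ALPHA)1, the main alpha-factor gene, at 6.84 and 9.01 in the eos1 deletion, against 14.4 and 9.04 in the izh2 deletion. The 22 meiotic genes, markers of diploid cells, summed to 2510 and 1987 in the eos1 deletion, against 2186 and 1871 in the izh2 deletion and 2240 and 2016 in the wild type, and of 4 tested 0 were called. The part of these marker shifts in the falls above was not tested.

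Of 22 tested genes of the general stress response, which the activators Msn2 and Msn4 turn on under many stresses, 16 rose and 0 fell, with 6.41% higher among all genes. The median log2 difference was 1.49, or 1.46 with SOL4 at its bound, and 15 of the 16 lie outside chromosome II. SOL4 passed the filter through the strains in which it is brighter. YGP1, a secreted glycoprotein, had scaled signals of 7601 and 6929 in the eos1 deletion, against 2547 and 1528 in the izh2 deletion and 2799 and 3579 in the wild type, and rose 3.68-fold (limma, adjusted p = 0.0037). The phosphogluconolactonase SOL4, below background on both izh2 deletion arrays, rose at least 2.69-fold, DCS2 3.25-fold, MSC1 3.17-fold, the small heat shock protein HSP42 2.85-fold and the cytosolic catalase CTT1 2.77-fold, beside HSP26, DDR2, RTC3, HSP12, NQM1 and TMA10 described above. SPI1, a cell wall protein, had 2829.9 and 709 in the eos1 deletion, against 824 and 328 in the izh2 deletion, so that the strains overlapped (adjusted p = 0.16). Without the first or second eos1 deletion array 8 and 15 members rose, and without the first or second izh2 deletion array 12 and 7.

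The wild type lay between the deletions for most of these genes, as it did for most called higher genes outside chromosome II. In 12 of the 16 both wild-type arrays fell below both eos1 deletion arrays and above both izh2 deletion arrays. Among all called higher genes outside chromosome II this was so for 83 of 132 (62.9%). The list's median against the wild type was 0.77 for the eos1 deletion and -0.63 for the izh2 deletion, comparisons that share the wild-type arrays. RTC3 differed from the wild type by 2.00 in the eos1 deletion and by -1.33 in the izh2 deletion, and TMA10 by 1.39 in the eos1 and -1.47 in the izh2 deletion, with 0 calls among the izh2 deletion values. HSP12 had 4935 and 2227 in the eos1 deletion, against 419 and 319 in the izh2 deletion and 614 and 512 in the wild type.

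Enzymes of the reserve carbohydrates trehalose and glycogen rose alongside. Of 17 tested genes 8 rose (47.1%, against 6.41% of all genes) and 0 fell, with a median log2 difference of 0.98. TSL1, a regulatory subunit of trehalose synthase, had scaled signals of 1947 and 1098 in the eos1 deletion, against 453 and 309.7 in the izh2 deletion and 640.3 and 672 in the wild type, and rose 3.9-fold (limma, adjusted p = 0.0065). The synthase subunits TPS1 and TPS2 rose 2.66- and 2.34-fold, and the trehalases NTH1 and NTH2, which break trehalose down, 1.98- and 2.41-fold, so that genes of synthesis and of breakdown were both higher. For glycogen, the branching enzyme GLC3 rose 3.96-fold (adjusted p = 0.023) and the synthase GSY2 2.57-fold (adjusted p = 0.035), and PGM2, the phosphoglucomutase that feeds both pathways, rose 3.63-fold. TPS1 and NTH2 lie on chromosome II. Without the first or second eos1 deletion array 3 and 8 members rose, and without the first or second izh2 deletion array 8 and 3. On signals as deposited 14 rose. In 5 of the 8 both wild-type arrays lay between the deletion strains, against 62.9% of the called higher genes outside chromosome II.

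**Figure D4:**
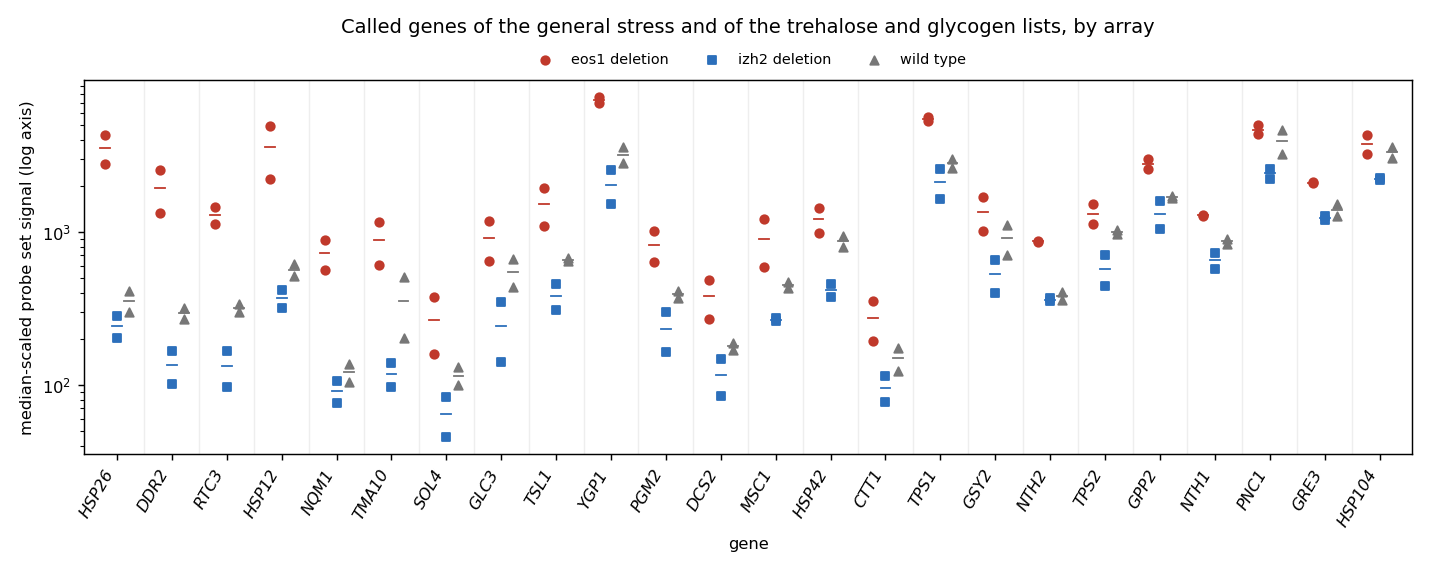
Median-scaled signals (log axis) of the called genes of the general stress list and of the trehalose and glycogen list in each array of the eos1 deletion (red circles), the izh2 deletion (blue squares) and the wild type (grey triangles), with bars at the mean of 2 arrays. Genes are ordered by the difference between the deletions. The wild type lies between the deletion strains in most of them, as in 62.9% of all called higher genes outside chromosome II.

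Of 20 tested genes of glycolysis and ethanol formation 4 rose and 1 fell, 20.0% and 5%, against 6.41% higher and 4.37% lower among all genes. The median log2 difference was -0.34, and -0.03 after quantile normalization. Of the 20 genes 16 belong to the brightest sixth, where the median over genes outside chromosome II was -0.27. The 4 that rose were HXK1, the glucokinase GLK1 (2.66-fold, limma, adjusted p = 0.0047), the minor pyruvate kinase PYK2 (2.31-fold) and TDH1, a glyceraldehyde-3-phosphate dehydrogenase (2.21-fold, adjusted p = 0.042). PFK2, a phosphofructokinase subunit, fell 1.46-fold, a call lost on signals as deposited, after quantile normalization and without any 1 of the deletion arrays. GLK1 had 5745 and 5409 in the eos1 deletion, against 2480.1 and 1773 in the izh2 deletion and 3016 and 3653 in the wild type, again with the wild type between them. Without the first eos1 deletion array or the second izh2 deletion array 2 members rose. CIT2, the peroxisomal citrate synthase, rose 2.69-fold (adjusted p = 0.0033) and PCK1, the entry enzyme of gluconeogenesis, 2.66-fold (adjusted p = 0.015), the 2 called (13.3%) of 15 tested glucose-repressed genes (6 on signals as deposited, 3 without the first or second wild-type array, 1 without the first eos1 deletion array or the first izh2 deletion array). Of 49 genes of the citric acid cycle and respiratory chain 4 rose (8.16%, near the 6.41% of all genes), CIT1, SDH4 and the chromosome II genes ATP3 and COR1, by 2.17-, 1.71-, 1.87- and 1.8-fold. Their number was 13 on signals as deposited, 7 and 8 without the first or second wild-type array, 0 without the first eos1 deletion array or the second izh2 deletion array, and 2 without one of the other deletion arrays.

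Part of the zinc transport genes fell in the eos1 deletion, ZRT1 the most. Zrt1 and Zrt2 carry zinc into the cell, Fet4 takes up iron and zinc with low affinity, and Zrc1 and Cot1 store zinc in the vacuole. Of 10 tested transport genes 5 fell and 0 rose, with 4.37% lower among all genes, and the median log2 difference was -0.52, or -0.46 relative to all genes tested. ZRT1, the high-affinity transporter, had scaled signals of 453 and 489.9 in the eos1 deletion, against 1194 and 1329 in the izh2 deletion and 1283 and 996 in the wild type, and fell 2.67-fold (limma, adjusted p = 0.0042). This call held without any 1 of the 6 arrays and on signals as deposited. ZRC1 had 2792 and 2977 in the eos1 deletion, against 4622 and 4628 in the izh2 deletion, and fell 1.6-fold (adjusted p = 0.023). FET4 fell 1.52-fold (adjusted p = 0.043), ZRT2 1.54-fold (adjusted p = 0.046) and PHO84, counted above, is the fifth. The calls of these 4 were lost without any 1 of the deletion arrays, leaving ZRT1 alone, and on signals as deposited. Those of FET4 and ZRT2 were also lost after quantile normalization.

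The other 5 zinc transport genes were not called, and their intervals bound the difference. The 95% interval of the log2 difference ran from -0.42 to 0.48 for MSC2 and from -0.56 to 0.49 for ZRG17, partners in zinc supply to the endoplasmic reticulum. It ran from -0.43 to 0.26 for ZRT3, which releases zinc from the vacuole, from -0.96 to 0.10 for COT1, and from -0.80 to 0.07 for YKE4.

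The IZH paralogues divided. IZH4 had scaled signals of 614 and 359 in the eos1 deletion, against 1100.2 and 1072 in the izh2 deletion and 1364 and 951 in the wild type, and fell 2.31-fold (limma, adjusted p = 0.027). IZH1, which like IZH2 is a Zap1 target, had 1224 and 1066 in the eos1 deletion, against 2306 and 2029 in the izh2 deletion and 1487 and 1867 in the wild type, and fell 1.89-fold (adjusted p = 0.018). For both the eos1 deletion was lowest, and for IZH1 the izh2 deletion was highest on both arrays. IZH3 differed by 0.06, with a 95% interval from -0.48 to 0.60. Both calls were lost on signals as deposited. That of IZH1 was lost without any 1 of the deletion arrays, and that of IZH4 without the second eos1 deletion array or either izh2 deletion array.

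Zap1 targets other than transporters did not move one way. Of 25 tested, 4 rose (16%, against 6.41% of all genes) and 2 fell (8%, against 4.37%), and the median was 0.10. The 4, HSP26, CTT1, GPP2 and GRE2, an oxidoreductase induced by stress (2.5-fold), are also known as stress genes, and the 2 were ADE17, of purine synthesis, and IZH1. ZAP1 itself differed by -0.23 (adjusted p = 0.66), the dehydrogenase gene ADH4 by -0.47 and ZPS1, a cell wall protein induced by zinc loss, by -0.16. Without the first eos1 deletion array or the second izh2 deletion array 2 members rose, and without the second eos1 or first izh2 deletion array 0 fell.

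Genes of the endoplasmic reticulum were called about as often as all genes tested (10.8%). Of 19 tested chaperones, oxidases and sensors of the unfolded protein response 2 rose (10.5%, against 6.41% of all genes). They were ERO1, the oxidase that forms disulfide bonds (1.68-fold, limma, adjusted p = 0.029), and the chromosome II gene DER1, of protein degradation at the endoplasmic reticulum (2.21-fold, adjusted p = 0.023). The median log2 difference of the 19 was 0.25, or 0.31 relative to all genes tested, with 13 above 0 and 6 below. KAR2 and PDI1, main chaperone and disulfide isomerase of the endoplasmic reticulum, differed by -0.04 and -0.05. The number of members that rose was 5 on signals as deposited, 4 without the first or second wild-type array and 0 without any 1 of the deletion arrays. In N-glycosylation 4 of 33 genes (12.1%) rose, ALG1, ALG14, ROT2 and RER2, by 1.87-, 2.01-, 1.74- and 1.74-fold, and 0 fell. All 4 are among the list's 6 genes on chromosome II, where 51.8% of all genes tested were higher, and 0 of the other 27 rose. On signals as deposited 6 rose, and without any 1 of the deletion arrays 0 did. Of 65 tested mitochondrial ribosomal protein genes 7 rose (10.8%, against 6.41% of all genes). They are the list's 7 tested members on chromosome II, with MRPL36 at 2.42-fold and MRPS9 at 1.98-fold. Without single deletion arrays 0 to 2 of them passed.

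Of 31 tested oxidative stress genes 5 rose (16.1%, against 6.41% of all genes) and 0 fell, led by PRX1, with scaled signals of 5033 and 4261 in the eos1 deletion, against 1032 and 819 in the izh2 deletion and 1319 and 1151 in the wild type (limma, adjusted p = 0.00047). TSA2, a second cytosolic peroxiredoxin, rose 2.95-fold, CTT1 2.77-fold, the glutathione peroxidase GPX1 2.43-fold and the glutathione transferase GTT1 2.22-fold. The superoxide dismutases SOD1 and SOD2 differed by -0.24 and 0.39, and the regulator YAP1 by 0.36. Without the first eos1 deletion array or the second izh2 deletion array PRX1 alone passed, and without the first izh2 deletion array 2 genes. Of 21 cytosolic and mitochondrial chaperones 4 rose (19.0%), HSP42, the chromosome II gene SSA3 (2.25-fold), HSP78 (2.08-fold) and the disaggregase HSP104 (1.69-fold), while the constitutive SSA1, SSA2 and HSC82 differed by 0.07, -0.37 and -0.33. Without the first eos1 deletion array or either izh2 deletion array 1 of the 21 passed.

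Growth-related genes lay lower in the eos1 deletion. Of 83 tested ribosome biogenesis factors, which process ribosomal RNA and assemble subunits, 37 fell and 0 rose, with 4.37% lower among all genes. Their median log2 difference was -0.67, or -0.62 relative to all genes tested, and -0.66 after quantile normalization. NOP7, of the large-subunit assembly pathway, had scaled signals of 1423 and 1478 in the eos1 deletion, against 2949 and 2504 in the izh2 deletion and 2097 and 2655 in the wild type, and fell 1.87-fold (limma, adjusted p = 0.018). BRX1 and NMD3, which act in assembly and export of the large subunit, fell 1.72- and 1.72-fold, and the helicase DBP8 1.82-fold. Each fall was small, with the lowest member at -0.96 on the log2 scale. None of the 37 passed on signals as deposited, where the median of the list was -0.30. Without single deletion arrays 0 passed, except 1 without the second eos1 deletion array. Of 20 subunits of RNA polymerases I and III 5 fell, with RPC34 at 1.96-fold and RPA43 at 1.73-fold, and 0 on signals as deposited or without any 1 of the deletion arrays.

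Most purine and one-carbon genes fell as well. Of 18 tested 12 fell (66.7%, against 4.37% of all genes) and 0 rose, with a median log2 difference of -0.78, and -0.70 after quantile normalization. SHM2, the cytosolic serine hydroxymethyltransferase, had scaled signals of 3218 and 2847 in the eos1 deletion, against 8596 and 6476 in the izh2 deletion and 6904 and 8582 in the wild type, and fell 2.47-fold (limma, adjusted p = 0.005). ADE17, of the last steps of purine synthesis, had 2543 and 1514 in the eos1 deletion, against 6599.9 and 4414 in the izh2 deletion, and fell 2.75-fold (adjusted p = 0.014). Its paralogue ADE16 differed by -0.02. ADE1, ADE2 and ADE6 fell 2.28-, 1.91- and 1.77-fold, and BAS1, the activator of the pathway, differed by -0.55 without a call. In 0 of the 12 did the wild-type arrays lie between the deletions. Without the first or second eos1 deletion array 5 and 1 members fell, without the first or second izh2 deletion array 1 and 6, and on signals as deposited 2.

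The 127 tested ribosomal protein genes had a median of -0.34 and 1 call, RPS9A. Of these genes 124 belong to the brightest sixth, where the median over genes outside chromosome II was -0.27, and after quantile normalization the median of the list was -0.03. With the replicate number as a block 75 of the 127 were called lower. The number that fell was 3 without the first or second wild-type array. Amino acid synthesis genes under Gcn4 had 7 falls among 48 (14.6%, against 4.37% of all genes), by 1.74-fold for HIS6 and 1.73-fold for ILV3, with a median of -0.33 (-0.25 after quantile normalization). Of them 0 passed on signals as deposited, 0 without the first eos1 or first izh2 deletion array, and 1 without the second eos1 or second izh2 deletion array.

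**Figure D5:**
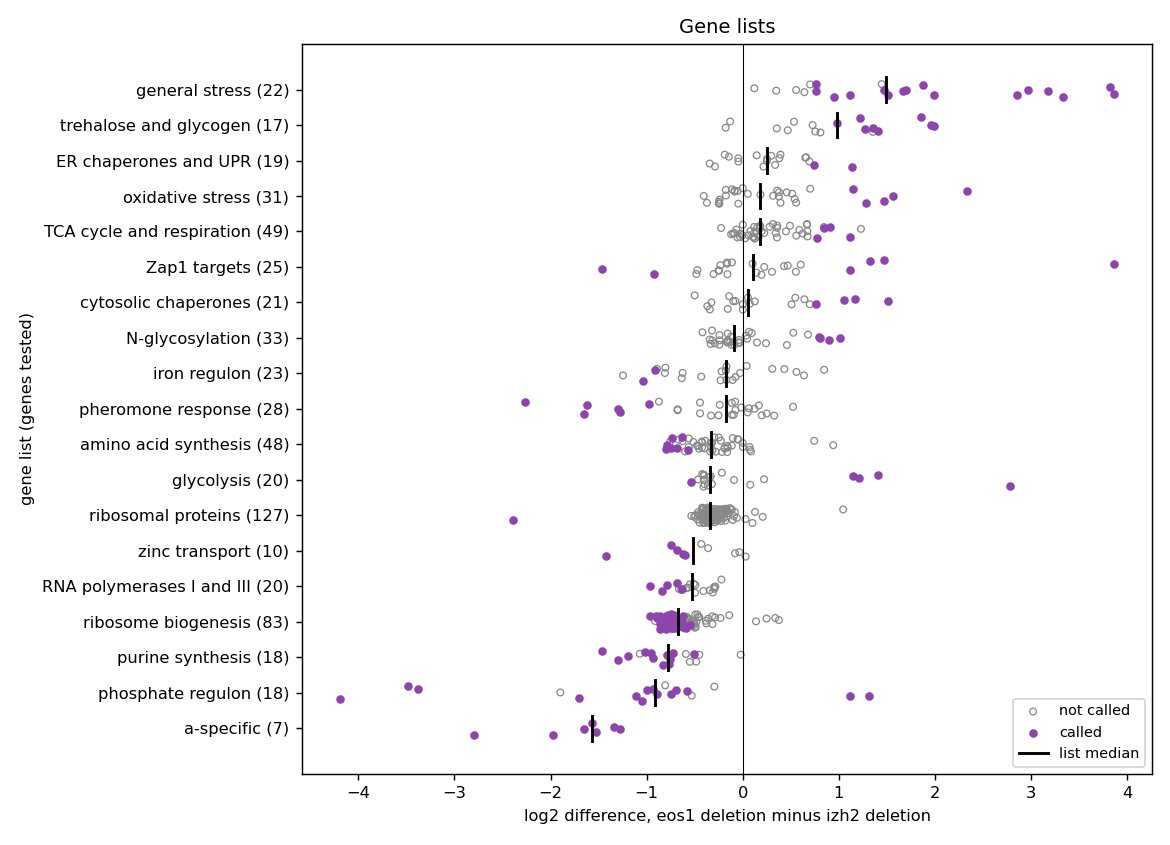
Log2 difference of the eos1 deletion minus the izh2 deletion for the tested members of 19 gene lists, ordered by the list median (black bar), with called genes filled and the number tested in parentheses. General stress genes lie farthest to the right with a median of 1.49, and a-specific genes farthest to the left with -1.57.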

How the data were processed

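Total RNA of log-phase cultures was extracted with hot phenol, biotin-labelled and applied, per the labels' protocols, to Yeast Genome 2.0 arrays made by Affymetrix. For 10928 probe sets the authors deposited linear signal intensities, 1 for each array. GCOS is named in the submitters' processing notes and GeneSpring 7.3.1 in the series' design text. How arrays were scaled to each other, which could shift all genes of an array, is not given here.

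Platform annotation and the R64 gene table named 5498 probe sets with 1 S. cerevisiae gene. One probe set per gene, the one with the highest mean log2 signal, was kept for 5449 genes. A floor of 1 was set, log2 was taken and each array was centred on its median gene. Scaled signals restore the linear scale at the mean array median. Genes were tested if their mean lay above the 95th percentile of the probe sets without an S. cerevisiae gene, which is a scaled signal of 90.5. All 6 arrays were fitted with limma 3.58.1 in R 4.3.3 (eBayes with an intensity trend, 3 residual and 5.90 prior degrees of freedom), two-sided, adjusted by the Benjamini-Hochberg method over the 4915 genes. The scripts were tested on simulated data.

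The 40 gene lists, with the deleted genes left out, the comparison and the naming rule were chosen with earlier results of these data known. The rule names the deleted genes and their neighbours, the 12 highest and 12 lowest called genes, up to 5 called members of a list by p (3 tested ones where none was called), all zinc transport, IZH, a-cell and alpha-cell genes tested, and the 5 highest and 5 lowest genes of chromosome II. Other members (VTC1, VTC2, VTC4, PHO8, PHO86, PHM8, YGP1, SOL4, DCS2, MSC1, SPI1, STE3, MF(ALPHA)1, STE5, STE7, STE11, FUS3, TPS2, GLC3, GSY2, ZAP1, ADH4, ZPS1, KAR2, PDI1, SOD1, SOD2, YAP1, SSA1, SSA2, HSC82, ADE2, ADE16 and BAS1) were added after their values were seen. Alternatives numbered 17. No promoter or protein sequence was used here.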

Additional observations from a re-analysis of the deposited data

How the results depend on the processing

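The 530 calls (315 higher, 215 lower) were 623 on signals as deposited (588 higher, 35 lower), 149 under a filter at the 99th percentile of background (54 and 95, of 1071 genes tested) and 259 without chromosome II genes (110 and 149). With the replicate number as a replicate block 678 passed (332 and 346), and 270 list members in place of 167, with 75 ribosomal protein and 11 glycolysis genes lower in place of 1 each. Deviations from the strain means correlated over genes at 0.09 for the eos1 with the izh2 deletion. They correlated at 0.48 for the eos1 deletion with wild type and at -0.34 for the izh2 deletion with wild type. With 2 arrays per strain these values cannot tell whether the titles' numbers pair the arrays. On leaving out 1 array from 86 to 737 genes passed, 51 to 417 higher and 33 to 320 lower, and 43 to 229 list members. Under the 99th percentile filter 76 list members passed and the chromosome II excess was 0.69. EOS1 and IZH2 kept their calls in each alternative in which they passed the filter, and on leaving out 1 array the fitted difference, which is no bound, of EOS1 lay between -9.97 and -8.28 and of IZH2 between 8.63 and 10.2. The other alternatives kept the number of calls within 1.5 times: quantile normalization gave 515 calls, centring on genes outside chromosome II 497, a floor of 16 537, no filter 557, averaged probe sets 545, only the 4 deletion arrays 744 and no intensity trend 473.

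Among genes named, signs turned only for uncalled ones: on signals as deposited for YKE4 (0.0079), ZRT3 (0.29), ZRG17 (0.33), ZIP1 (0.037), IME1 (0.22), SWS2 (0.19), TPM1 (0.25) and PHO80 (0.22), with ZRG17 at 0.024 when centred outside chromosome II. On leaving out 1 array MSC2 lay between -0.18 and 0.24, ZRG17 between -0.32 and 0.25, IZH3 between -0.050 and 0.18, ZIP1 between -0.72 and 0.056, RME1 between -0.082 and 0.43 and SWS2 between -0.44 and 0.073. The cause was not tested, beyond the smaller number of genes or arrays where some were left out. Signal over background limits dim genes, which were not tested.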

Other observations

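Of 33 tested cell wall genes 4 rose (12.1%, against 6.41% of all genes) and 3 fell (9.09%, against 4.37% of all genes). GSC2, the glucan synthase subunit induced by wall stress and glucose loss, had scaled signals of 2746 and 2587 in the eos1 deletion, against 682 and 666 in the izh2 deletion and 811 and 762 in the wild type, and rose 3.96-fold (limma, adjusted p = 0.00047). PIR3, a covalently bound wall protein, rose 3.17-fold and the chitin synthase CHS2, on chromosome II, 2.04-fold, beside NCA3. UTR2, a chitin transglycosylase, fell 1.87-fold, the mannoprotein CWP1, named after its values were seen, 2.17-fold and SUN4 1.65-fold. Without the first eos1 deletion array or either izh2 deletion array 0 of the 3 falls passed, and on signals as deposited 8 rose and 1 fell.

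Iron genes gave 2 falls among 23 (8.70%, against 4.37% of all genes), FTR1, the high-affinity iron permease, by 2.05-fold (adjusted p = 0.039) and ISU2, a scaffold for iron-sulfur clusters, by 1.89-fold (limma, adjusted p = 0.019). FTR1 had 1195 and 1983 in the eos1 deletion, against 2736 and 3647 in the izh2 deletion and 1669 and 2157 in the wild type, so that here the izh2 deletion stood apart from the wild type more than the eos1 deletion did. Both calls were lost on signals as deposited, that of ISU2 without any 1 of the deletion arrays, and that of FTR1 after quantile normalization and without the first eos1 or either izh2 deletion array. In sulfur and methionine metabolism 2 of 28 tested genes fell (7.14%, against 4.37% of all genes). They were SAM3 and MMP1, permeases for S-adenosylmethionine and S-methylmethionine, at 3.76- and 2.04-fold. The number that fell changed when single arrays were left out, and the call of MMP1 was lost on signals as deposited.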
